A study of Mus musculus with 25 samples.

Results

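Grem1, Nog, Chrd, Chrdl1, Bmper and Twsg1, 6 genes that encode secreted antagonists of bone morphogenetic proteins (BMPs), were followed by RNA-Seq through 5 mesenchymes of the mouse embryo. They were chosen by name as a family of secreted proteins, with earlier results of these data known, and each of the 6 matched a single row by its Ensembl identifier among the 35880 genes of the table. The tissues were microdissected from wild-type C57Bl/6JOlaHsd embryos and carried no transgene or treatment, with 5 samples each and 25 in all. Of the E13.5 tissues, VM was ventral skin mesenchyme taken outside the mammary region, MM the mammary mesenchyme of the bud stage and SM the mesenchyme of the submandibular salivary gland. Of those at E16.5, MM was the mammary mesenchyme of the sprout stage and FP the fat pad precursor. Epithelium was removed after enzyme digestion, and a sample pooled 2 to 3 embryos of a litter. The E16.5 pools are labelled female, whereas no sex is given for the E13.5 pools, so stage and sex cannot be told apart between E13.5 and E16.5. Since 3 litters supplied the 5 samples of each tissue, p-values measure the spread between pools, some of which shared a litter.

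BMPs are secreted ligands that bind paired type I and type II receptors, after which Smad1, Smad5 and Smad9 are phosphorylated and genes such as the Id family are switched on. Secreted antagonists bind the ligands outside the cell. Gremlin 1 (Grem1) and noggin (Nog) cap the ligand with cystine-knot folds, chordin (Chrd) and chordin-like 1 (Chrdl1) hold it with cysteine-rich repeats, BMPER binds BMPs and chordin and can act for or against the signal, and twisted gastrulation (Twsg1) joins chordin and the ligand in a complex. BMP signals from the mesenchyme take part in the outgrowth of the mammary bud and in the branching of the salivary gland.

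Each gene is given as its normalized count, that is, the estimated count scaled with edgeR's TMM factors to the mean library size, as mean ± SD (n = 5 samples) unless each sample is listed, in the order of replicates 1 to 5. Total counts per sample ran from 20678150 to 34448304. A gene was called between 2 tissues at an adjusted p under 0.05 in edgeR's quasi-likelihood test over 17657 genes with a change of 0.58 or more on the log2 scale, provided that its mean normalized count exceeded 50 where it was higher. All 10 pairs of tissues were tested, and pairs that share a tissue are not independent of each other. The 10 mesenchymal marker genes were detected in every tissue, with a summed level of at least 13977 CPM (counts scaled to library size) in every sample. Markers of other cells were present as well. The 12 skeletal muscle genes summed to 2258 to 22146 CPM in the fat pad precursor, 822 to 3625 in E16.5 mammary mesenchyme and at most 657 in the E13.5 tissues. The 12 genes of peripheral neurons summed to 366 to 488 CPM in salivary mesenchyme and to at most 181 elsewhere. The 10 leukocyte genes summed to 66.9 to 88.7 CPM in salivary mesenchyme and 312 to 357 in E13.5 mammary mesenchyme, with no gene at 0. What these cells add to the differences from salivary mesenchyme was not tested.

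The antagonists fell into different patterns. Grem1 was high in the 2 ventral E13.5 tissues, lower in E16.5 mammary mesenchyme and lowest in the fat pad precursor and salivary mesenchyme. Bmper and Chrdl1 were higher at E16.5 than in the 2 ventral E13.5 tissues, and Chrdl1 and Chrd were high in salivary mesenchyme. Nog was low everywhere and lowest in salivary mesenchyme, and Twsg1 was abundant in all 5 tissues. Bmper was called in 9 of the 10 pairs, Grem1 and Chrdl1 in 8 each, Chrd in 4, Nog in 2 and Twsg1 in 1. Between E13.5 mammary mesenchyme and ventral skin mesenchyme, 1 of the 6 genes was called, beside 6.45% of all genes tested. From E13.5 mammary mesenchyme, 3 of the 6 genes were called in E16.5 mammary mesenchyme, beside 19.8% of all genes, and 3 of the 6 genes in the fat pad precursor, beside 25.5%. Between the fat pad precursor and E16.5 mammary mesenchyme the count was 4, beside 14.1%. Against salivary mesenchyme, 4 of the 6 were called in E13.5 mammary mesenchyme, 5 in E16.5 mammary mesenchyme, 2 in the fat pad precursor and 3 in ventral skin mesenchyme, beside 30.1%, 35.1%, 39.5% and 30.2% of all genes. In the fat pad precursor against salivary mesenchyme the share of members was thus no higher than that of all genes. Against ventral skin mesenchyme, 4 were called in E16.5 mammary mesenchyme and 3 in the fat pad precursor, beside 23.3% and 27.4%.

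**Figure D1:**
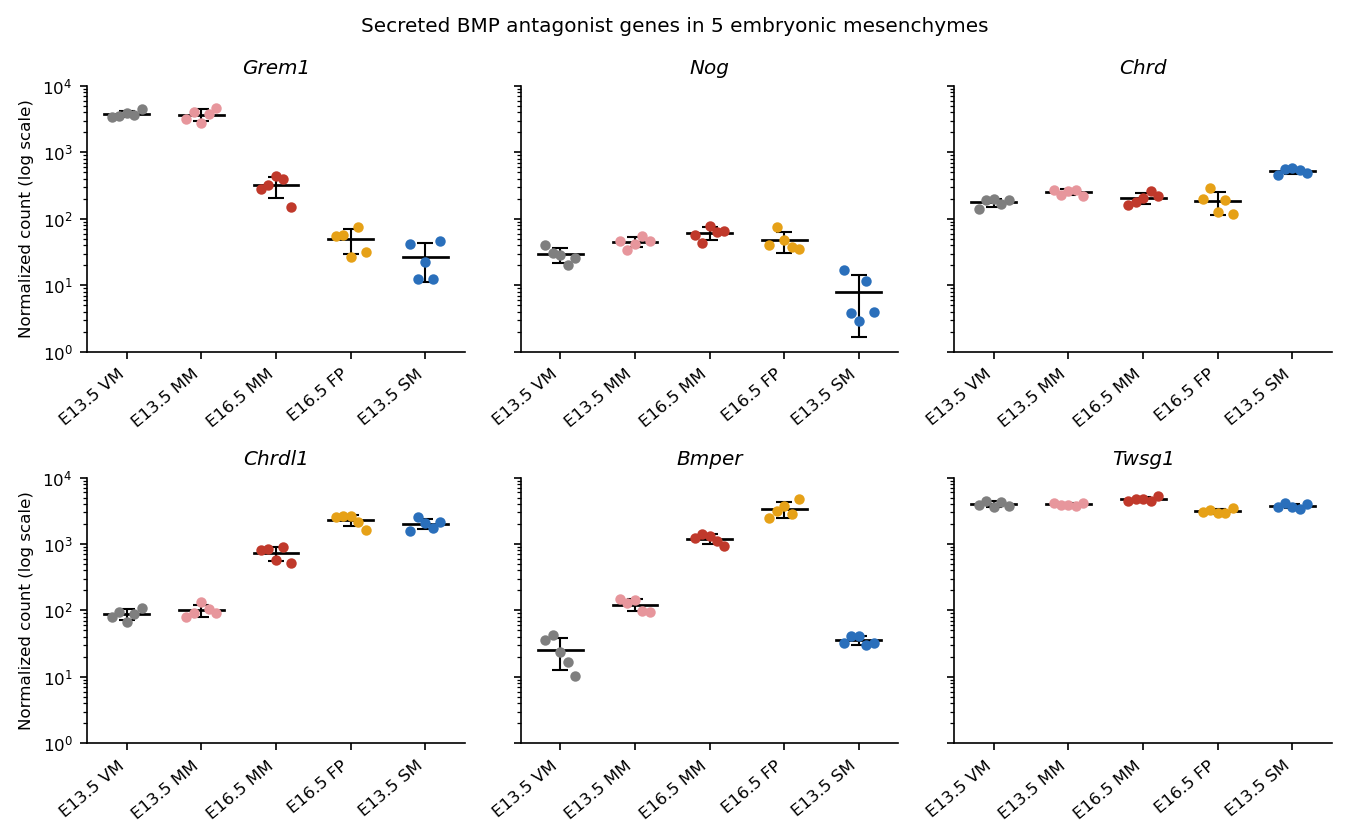
Normalized counts on a log scale of the 6 antagonist genes in the 5 tissues, with 1 point per sample and the mean ± SD in black (n = 5). Grem1 spans from 26.8 in E13.5 SM to 3806 in E13.5 VM on average, Bmper from 25.7 in E13.5 VM to 3382 in E16.5 FP, and Twsg1 stays between 3107 and 4718.

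Grem1, which encodes gremlin 1 of the DAN family, an antagonist chiefly of BMP2, BMP4 and BMP7, lies on chromosome 2 from 113746164 to 113758646 (GRCm38, minus strand). Its normalized counts in ventral skin mesenchyme were 3438, 3485, 3944, 3666 and 4498, and in E13.5 mammary mesenchyme 3198, 4053, 2748, 3749 and 4677. The 2 tissues overlapped and did not differ beyond their spread (log2 fold change -0.05, standard error 0.245, edgeR adjusted p = 0.944), with a 95% interval of the log2 difference from -0.56 to 0.46. In E16.5 mammary mesenchyme the values were 285, 325, 435, 393 and 153, in the fat pad precursor 55.6, 56.6, 26.9, 75.7 and 31.7, and in salivary mesenchyme 41.3, 12.5, 22.2, 12.6 and 45.7. Every sample of E16.5 mammary mesenchyme lay below every sample of E13.5 mammary mesenchyme and above every sample of the fat pad precursor, while the fat pad precursor and salivary mesenchyme overlapped. From E13.5 mammary mesenchyme to E16.5 mammary mesenchyme Grem1 fell 11.6-fold (log2 fold change -3.54, standard error 0.276, edgeR adjusted p = 6.84e-10). It was a further 6.35-fold lower in the fat pad precursor than in E16.5 mammary mesenchyme (log2 fold change -2.67, standard error 0.309, edgeR adjusted p = 4.66e-07). Against salivary mesenchyme it was 137-fold higher in E13.5 mammary mesenchyme (log2 fold change 7.10, standard error 0.347, edgeR adjusted p = 6.84e-14) and 11.8-fold higher in E16.5 mammary mesenchyme (log2 fold change 3.56, standard error 0.330, edgeR adjusted p = 3.08e-09). Against ventral skin mesenchyme the log2 fold change of Grem1 was -3.58 in E16.5 mammary mesenchyme (edgeR adjusted p = 2.86e-10) and -6.25 in the fat pad precursor (edgeR adjusted p = 2.06e-13). Thus the mammary mesenchyme of both stages held more Grem1 transcript than salivary mesenchyme. The fat pad precursor and salivary mesenchyme, the 2 lowest tissues, were not called apart, because the mean of the higher one did not reach 50, although the adjusted p was 0.0381 (log2 fold change 0.90). In a bulk sample, fewer cells that express a gene and less of its RNA per cell cannot be told apart.

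Bmper, on chromosome 9 from 23223076 to 23485200 (plus strand), had the opposite course over the mammary stages. BMPER, also known as crossveinless-2, is a secreted protein with cysteine-rich repeats that is known from endothelium and from the lung and skeleton. Its normalized counts in ventral skin mesenchyme were 35.5, 42.6, 23.6, 16.6 and 10.3, in E13.5 mammary mesenchyme 148, 127, 143, 96.4 and 94.6, and in salivary mesenchyme 32.3, 41.2, 40.4, 29.7 and 32.8. Already at E13.5 every sample of E13.5 mammary mesenchyme lay above every sample of the other 2 tissues of that stage. In E16.5 mammary mesenchyme the values were 1236, 1410.3, 1319, 1123 and 917, and in the fat pad precursor 2442, 3107, 3759, 2847 and 4754, so that each step of the order from E13.5 mammary mesenchyme to E16.5 mammary mesenchyme to the fat pad precursor was free of overlap. Bmper was 4.78-fold higher in E13.5 mammary mesenchyme than in ventral skin mesenchyme (log2 fold change 2.26, standard error 0.260, edgeR adjusted p = 7.11e-07). It was the single antagonist of the 6 called between these tissues. From E13.5 mammary mesenchyme it rose 9.90-fold to E16.5 mammary mesenchyme (log2 fold change 3.31, standard error 0.219, edgeR adjusted p = 2.1e-11), and it was 2.82-fold higher again in the fat pad precursor (log2 fold change 1.49, standard error 0.197, edgeR adjusted p = 1.92e-06). Against salivary mesenchyme the mammary mesenchyme was higher at both stages, 3.43-fold at E13.5 (log2 fold change 1.78, standard error 0.248, edgeR adjusted p = 1.31e-06) and 33.9-fold at E16.5 (log2 fold change 5.09, standard error 0.249, edgeR adjusted p = 1.48e-14), and the fat pad precursor was 95.6-fold higher (log2 fold change 6.58, standard error 0.260, edgeR adjusted p = 2.62e-16). Salivary mesenchyme and ventral skin mesenchyme overlapped and were not called apart (edgeR adjusted p = 0.157). Against ventral skin mesenchyme the log2 fold change of Bmper was 5.57 in E16.5 mammary mesenchyme (edgeR adjusted p = 2.3e-14) and 7.06 in the fat pad precursor (edgeR adjusted p = 2.5e-16). The 10 endothelial genes summed to 757 to 932 CPM in E13.5 mammary mesenchyme, 939 to 1134 in E16.5 mammary mesenchyme and 1169 to 1427 in the fat pad precursor, with none of them at 0. In E16.5 mammary mesenchyme 1 was called higher and 1 lower than in E13.5 mammary mesenchyme, beside 19.8% of all genes. In the fat pad precursor 1 was higher and none lower than in E16.5 mammary mesenchyme, beside 14.1%. Against E13.5 mammary mesenchyme 6 were higher and none lower in the fat pad precursor, beside 25.5%. Against salivary mesenchyme all 10 were called higher in E16.5 mammary mesenchyme and in the fat pad precursor, beside 35.1% and 39.5% of all genes called. The 10 genes of pericytes and smooth muscle summed to 292 to 363 CPM in E13.5 mammary mesenchyme, 740 to 970 in E16.5 mammary mesenchyme and 824 to 993 in the fat pad precursor. Of these, 8 were called higher and none lower in the first step, and 1 higher and none lower in the second. The part of these cells in the Bmper levels was not tested.

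The sequences upstream of Grem1 and Bmper are printed because these 2 genes changed in opposite directions between the same tissues. Each is the stretch of 250 bases before the transcription start in RefSeq's GRCm38.p6 annotation, read 5′ to 3′ on the gene's own strand, at chr2:113758649-113758898 for Grem1 (minus strand) and chr9:23222826-23223075 for Bmper (plus strand). Capitals mark 4 motifs on either strand, the GC box GGGCGG, the CCAAT box CCAAT, the TATA box TATAAA and GGCGCC, which is part of the BMP response element of Id1.
Grem1 upstream: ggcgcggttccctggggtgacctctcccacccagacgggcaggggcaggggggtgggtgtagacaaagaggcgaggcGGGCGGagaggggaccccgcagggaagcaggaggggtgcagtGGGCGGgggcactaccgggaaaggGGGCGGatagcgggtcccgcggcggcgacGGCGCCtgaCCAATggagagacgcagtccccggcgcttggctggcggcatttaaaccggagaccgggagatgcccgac
Bmper upstream: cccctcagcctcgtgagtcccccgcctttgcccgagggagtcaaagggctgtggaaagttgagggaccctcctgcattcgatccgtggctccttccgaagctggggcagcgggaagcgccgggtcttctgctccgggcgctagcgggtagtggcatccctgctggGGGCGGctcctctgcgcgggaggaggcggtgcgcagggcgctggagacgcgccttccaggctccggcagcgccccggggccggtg
Both stretches were rich in G and C, at 72.0% and 71.6%, beside a median of 52.4% over 32851 promoter entries of the same length. The Grem1 stretch held GGGCGG 3 times, CCAAT once and GGCGCC once, with no overlap between them, and the Bmper stretch held GGGCGG once and none of the other motifs. Of all promoter entries, 32.7% held GGGCGG, 33.8% CCAAT, 12.4% TATAAA and 9.59% GGCGCC. These matches describe the letters only.

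Chrdl1, on chromosome X from 143285674 to 143394262 (minus strand), encodes chordin-like 1, which binds BMP4 and other BMPs. It had normalized counts of 79.7, 95.6, 67.5, 89.4 and 109 in ventral skin mesenchyme and of 80.3, 90.0, 134, 103 and 91.0 in E13.5 mammary mesenchyme. These 2 tissues overlapped and were not called apart (edgeR adjusted p = 0.636, 95% interval of the log2 difference from -0.23 to 0.59). The values were 803, 845, 565, 907 and 509.9 in E16.5 mammary mesenchyme, 2559, 2613, 2601, 2131 and 1612 in the fat pad precursor and 1582, 2527, 2093, 1758 and 2118 in salivary mesenchyme. E16.5 mammary mesenchyme stood between the ventral E13.5 tissues and the other 2, with no overlap on either side, and the fat pad precursor overlapped with salivary mesenchyme. Chrdl1 rose 7.26-fold from E13.5 mammary mesenchyme to E16.5 mammary mesenchyme (log2 fold change 2.86, standard error 0.189, edgeR adjusted p = 1.4e-11) and was 3.17-fold higher in the fat pad precursor than in E16.5 mammary mesenchyme (log2 fold change 1.67, standard error 0.171, edgeR adjusted p = 3.43e-08). It was 20.2-fold lower in E13.5 mammary mesenchyme than in salivary mesenchyme (log2 fold change -4.33, standard error 0.196, edgeR adjusted p = 3.12e-15) and 2.78-fold lower in E16.5 mammary mesenchyme (log2 fold change -1.47, standard error 0.170, edgeR adjusted p = 5.28e-08). The fat pad precursor and salivary mesenchyme were not called apart (log2 fold change 0.19, edgeR adjusted p = 0.301), and the 95% interval of the difference ran from -0.15 to 0.54. Against ventral skin mesenchyme the log2 fold change of Chrdl1 was 3.04 in E16.5 mammary mesenchyme (edgeR adjusted p = 2.39e-12) and 4.71 in the fat pad precursor (edgeR adjusted p = 8.52e-16). Chrdl1 is X-linked, and the part of sex in these differences was not tested.

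Skeletal muscle and adipocyte transcripts were also high in the fat pad precursor, where Chrdl1 and Bmper were high. Of the 12 muscle genes, 11 were called higher and none lower in the fat pad precursor than in E13.5 mammary mesenchyme. Of the 10 adipocyte genes 9 were higher and none lower in the same pair, beside 25.5% of all genes called. The adipocyte genes summed to 74.7 to 134 CPM in E13.5 mammary mesenchyme, 225 to 576 in E16.5 mammary mesenchyme and 2062 to 4548 in the fat pad precursor, and to 190 to 223 in salivary mesenchyme, where Chrdl1 was high as well. Every salivary sample thus lay above every sample of E13.5 mammary mesenchyme for the sum of this list, as for Chrdl1. Of its genes, 3 (Adipoq, Cidec and Lep) were at 0 in all salivary samples. Between E13.5 mammary and salivary mesenchyme, 2 of the 10 were called higher in the former and 2 lower, beside 30.1% of all genes. The median log2 fold change of the list was 0.996, beside 0.03 over all genes. No muscle gene was at 0 in any tissue as a whole. The muscle genes summed to 14936, 22146, 13828, 13215 and 2258 CPM in replicates 1 to 5 of the fat pad precursor, so that replicate 5 stood apart. That sample had the lowest Chrdl1 of its tissue and the highest Bmper. Without it, the log2 fold change of the fat pad precursor against E13.5 mammary mesenchyme was 4.64 for Chrdl1 (edgeR adjusted p = 7.63e-16) and 4.65 for Bmper (edgeR adjusted p = 1.88e-14), beside 4.53 and 4.80 with all samples. Against E16.5 mammary mesenchyme the values without it were 1.77 for Chrdl1, 1.33 for Bmper and -2.54 for Grem1, and all 3 stayed called. The muscle genes summed to 108 to 657 CPM in salivary mesenchyme and to 122 to 438 in E13.5 mammary mesenchyme, and these ranges overlapped. The Chrdl1 counts of these 2 tissues did not overlap. The part of muscle and adipocyte cells in the levels of Chrdl1 and Bmper was not tested.

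**Figure D2:**
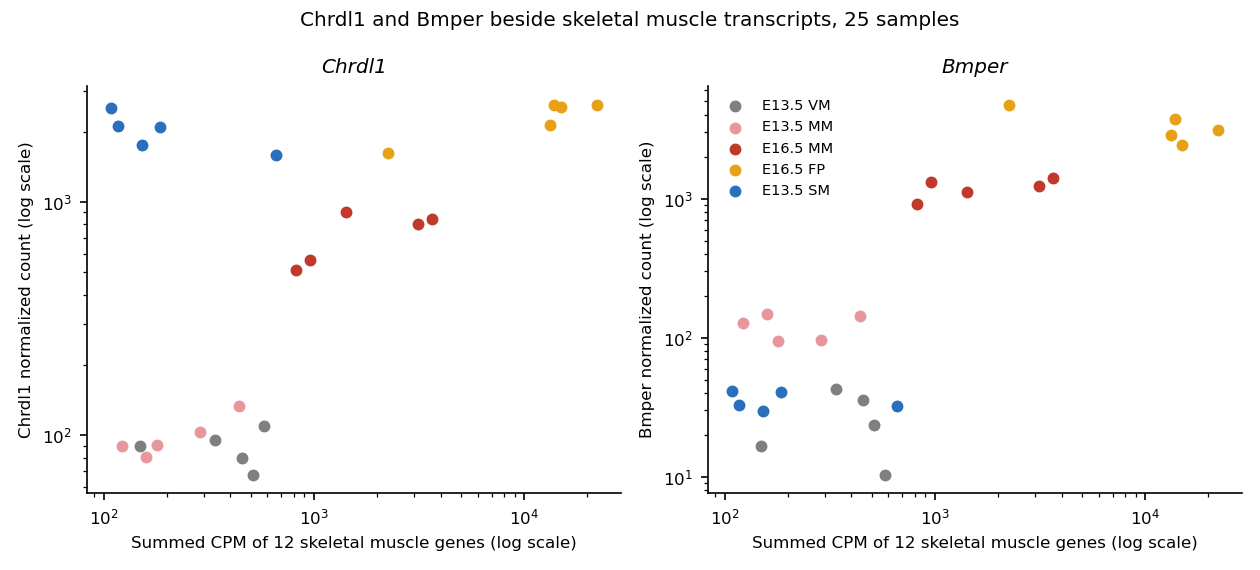
Normalized count of Chrdl1 (left) and Bmper (right) against the summed CPM of 12 skeletal muscle genes, both on log scales, with 1 point per sample colored by tissue. E13.5 SM reaches Chrdl1 counts of 1582 to 2527 at low muscle levels, and E16.5 FP replicate 5, at 2258 CPM of muscle genes, has the highest Bmper count.

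Chrd, on chromosome 16 from 20733127 to 20742384 (plus strand), encodes chordin, which is inactivated by tolloid proteases. Its normalized counts in salivary mesenchyme were 458, 559.8, 587, 549 and 497, above every sample of the other 4 tissues. They were 270.3, 232, 263, 277 and 222 in E13.5 mammary mesenchyme and 139.9, 194, 196, 165 and 189.8 in ventral skin mesenchyme. In E16.5 mammary mesenchyme they were 159, 179.9, 207, 267 and 218, and in the fat pad precursor 197, 291, 128, 195 and 117.4. Salivary mesenchyme was thus the high tissue for Chrd, and among the other 4 no pair was called. The fat pad precursor against E13.5 mammary mesenchyme had too small a change for a call (log2 fold change -0.44, edgeR adjusted p = 0.0402). Chrd was 2.10-fold lower in E13.5 mammary mesenchyme than in salivary mesenchyme (log2 fold change -1.07, standard error 0.176, edgeR adjusted p = 1.01e-05), 2.57-fold lower in E16.5 mammary mesenchyme (log2 fold change -1.36, standard error 0.178, edgeR adjusted p = 3.08e-07), 2.85-fold lower in the fat pad precursor (log2 fold change -1.51, standard error 0.179, edgeR adjusted p = 4.96e-08) and 2.99-fold lower in ventral skin mesenchyme (log2 fold change -1.58, standard error 0.179, edgeR adjusted p = 3.14e-08). Every sample of E13.5 mammary mesenchyme lay above every sample of ventral skin mesenchyme, but the difference did not pass the test (log2 fold change 0.51, standard error 0.178, edgeR adjusted p = 0.0517). Chrd shares 239 exonic bases with Thpo on the opposite strand. Thpo itself had 173 counts over the 25 samples, beside 6897 for Chrd.

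Nog, on chromosome 11 from 89300638 to 89302332 (minus strand), encodes noggin, an antagonist of BMP2, BMP4 and other BMPs. It was scarce, and its normalized counts were 40.9, 30.1, 29.1, 20.2 and 25.4 in ventral skin mesenchyme, 46.4, 34.5, 42.0, 55.6 and 46.0 in E13.5 mammary mesenchyme and 56.2, 43.2, 79.4, 62.5 and 66.5 in E16.5 mammary mesenchyme. They were 41.1, 76.4, 48.4, 37.3 and 34.9 in the fat pad precursor and 17.1, 3.83, 2.89, 11.7 and 3.98 in salivary mesenchyme. Every sample of salivary mesenchyme lay below every sample of the other tissues, which overlapped with each other except for E16.5 mammary mesenchyme and ventral skin mesenchyme. Before scaling, the 5 samples of salivary mesenchyme held 19, 4, 3, 13 and 4 counts, so that counting error alone is large there. Nog was called higher in E16.5 mammary mesenchyme than in salivary mesenchyme (log2 fold change 2.93, standard error 0.367, edgeR adjusted p = 1.51e-07) and than in ventral skin mesenchyme (log2 fold change 1.08, standard error 0.330, edgeR adjusted p = 0.0078). With a mean of 50 required over both tissues neither pair was called. The difference from salivary mesenchyme had an adjusted p of 2.14e-06 in E13.5 mammary mesenchyme, 9.83e-07 in the fat pad precursor and 0.000106 in ventral skin mesenchyme by edgeR's test. It was not called there, since the mean of the higher tissue did not exceed 50 normalized counts.

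Twsg1, on chromosome 17 from 65921972 to 65951226 (minus strand), encodes twisted gastrulation, which binds BMPs and chordin and can oppose or favour the signal. Its normalized counts were 3919, 4485, 3643, 4324 and 3735 in ventral skin mesenchyme, 4133, 3921, 3815, 3677 and 4103 in E13.5 mammary mesenchyme and 3585, 4073, 3558, 3386 and 4022 in salivary mesenchyme, and these 3 tissues overlapped. They were 4449.8, 4819, 4689, 4409 and 5224 in E16.5 mammary mesenchyme and 3013, 3267, 2883, 2933 and 3438 in the fat pad precursor, with no overlap between the 2. Twsg1 was 1.52-fold lower in the fat pad precursor than in E16.5 mammary mesenchyme (log2 fold change -0.60, standard error 0.0712, edgeR adjusted p = 2.46e-07), the only one of its 10 pairs that was called, and without E16.5 mammary mesenchyme replicate 5 the log2 fold change of -0.57 fell short of the size a call needs (edgeR adjusted p = 7.13e-07). In 6 other pairs the adjusted p was under 0.05 and the change smaller than a call needs. The largest of these was -0.37 on the log2 scale, in the fat pad precursor against ventral skin mesenchyme (edgeR adjusted p = 7.61e-05). Between E13.5 mammary mesenchyme and salivary mesenchyme the 95% interval of the log2 difference ran from -0.07 to 0.23. The samples of a tissue were alike, with a coefficient of variation of 4.90% to 9.15%, beside 11.4% to 58.8% for Grem1. The 58.8% belonged to salivary mesenchyme, where the mean Grem1 count was 26.8 and counting error is larger. In ventral skin mesenchyme and E13.5 mammary mesenchyme, with Grem1 means of 3806 and 3685, it was 11.4% and 20.3%.

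**Figure D3:**
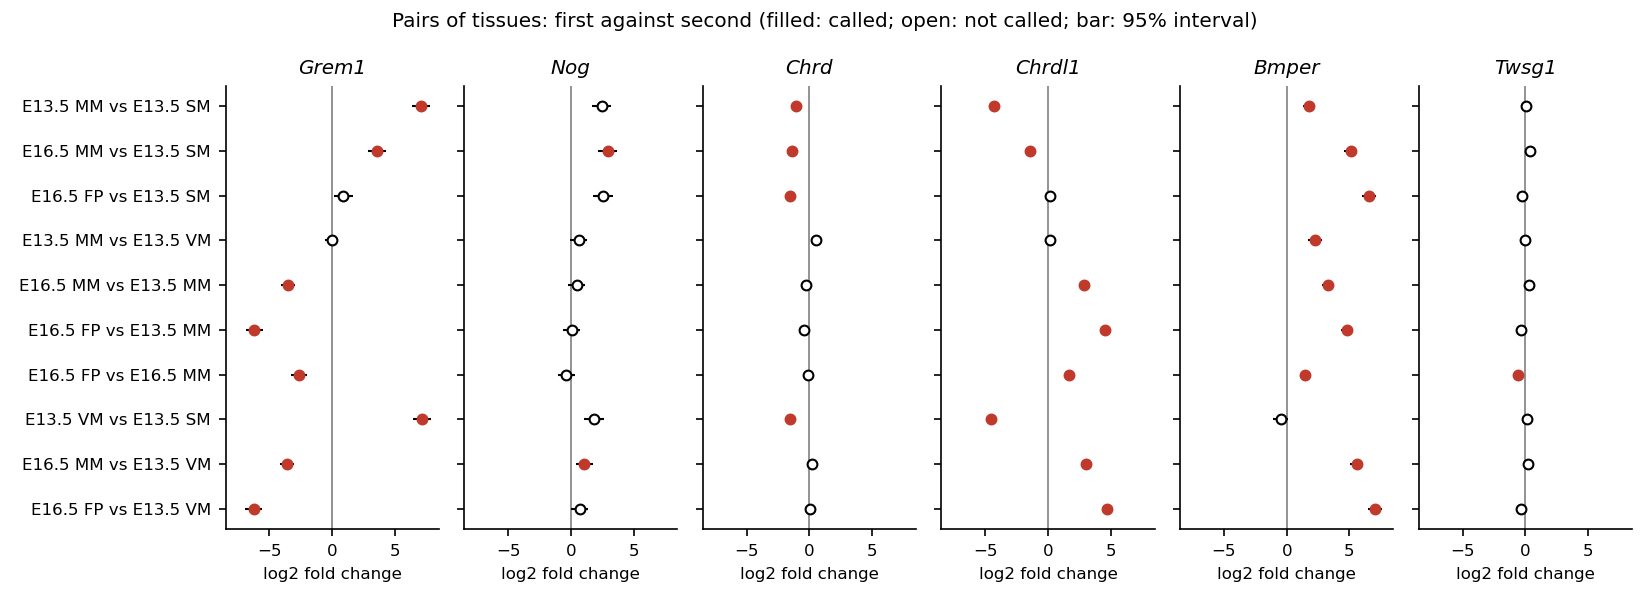
Log2 fold change of each gene in the 10 pairs of tissues, first named against second, with its 95% interval from the standard error of edgeR's test. Filled points are called and open points are not. Grem1 lies at -3.54 and Bmper at 3.31 in E16.5 MM against E13.5 MM, and the Twsg1 values lie between -0.60 and 0.34.

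To compare the genes with each other, counts were divided by the length of each gene's annotated exons and scaled to the same total in every sample (TPM). Per length, Twsg1 and Grem1 were the leading antagonist transcripts of the ventral E13.5 tissues. Grem1 made up 52.0% ± 4.41 and Twsg1 44.4% ± 4.28 of the summed TPM of the 6 genes in ventral skin mesenchyme (SD, n = 5), and 50.1% ± 5.21 and 43.7% ± 4.17 in E13.5 mammary mesenchyme. With the longest transcript of each gene as its length, the order of the 2 turned, with Grem1 at 46.1% ± 4.38 and 44.3% ± 5.15 and Twsg1 at 49.5% ± 4.30 and 48.6% ± 4.01. In E16.5 mammary mesenchyme the make-up had changed to 64.6% ± 4.71 Twsg1, 17.5% ± 2.42 Bmper, 7.59% ± 1.87 Chrdl1 and 5.40% ± 1.80 Grem1. In the fat pad precursor Bmper held 40.4% ± 7.03, Twsg1 35.3% ± 2.52, Chrdl1 20.2% ± 4.65 and Grem1 0.717% ± 0.343. In salivary mesenchyme Twsg1 held 64.4% ± 2.23, Chrdl1 26.4% ± 2.56, Chrd 7.57% ± 0.889 and Grem1 0.581% ± 0.345. Without Twsg1, a single gene held most of the rest in 4 of the tissues. It was Grem1 in ventral skin mesenchyme, with 93.4% ± 0.997, and in E13.5 mammary mesenchyme, with 88.9% ± 2.84, Bmper in the fat pad precursor, with 62.3% ± 9.42, and Chrdl1 in salivary mesenchyme, with 73.9% ± 3.32. In E16.5 mammary mesenchyme Bmper held 49.6% ± 3.86. The summed TPM of the 5 genes other than Twsg1 was 103 ± 22.7 in ventral skin mesenchyme, 103 ± 20.2 in E13.5 mammary mesenchyme and 103 ± 17.3 in the fat pad precursor, and 51.2 ± 6.77 in E16.5 mammary mesenchyme and 52.2 ± 6.76 in salivary mesenchyme. How alike these sums were depended on the length used. With the longest transcript they were 84.7 ± 17.2 in ventral skin mesenchyme, 85.8 ± 15.4 in E13.5 mammary mesenchyme and 116.7 ± 17.8 in the fat pad precursor. They were then 54.1 ± 6.71 in E16.5 mammary mesenchyme and 65.3 ± 8.37 in salivary mesenchyme. The make-up is a description of transcript levels and was not tested.

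**Figure D4:**
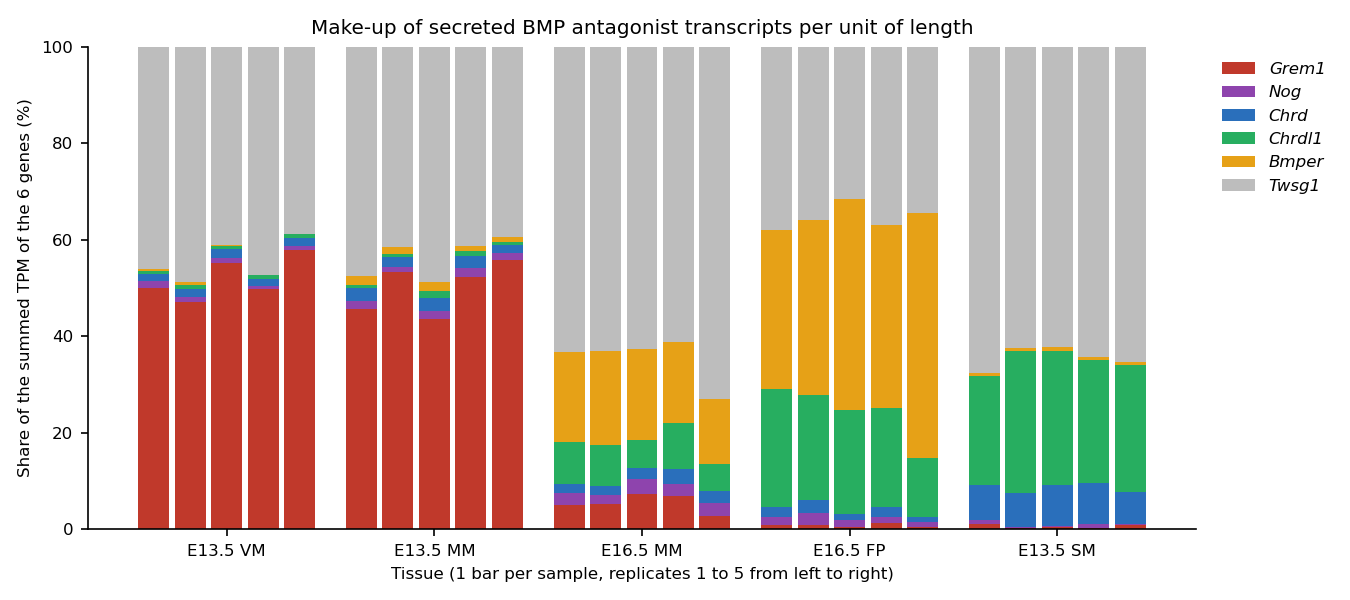
Share in percent of the summed TPM of the 6 antagonist genes that each gene holds, with 1 stacked bar per sample in the order of replicates 1 to 5. Grem1 holds about as much as Twsg1 in E13.5 VM and E13.5 MM, Bmper holds 32.9% to 50.8% in E16.5 FP, and Chrdl1 holds 22.7% to 29.5% in E13.5 SM.

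The ligands that these proteins bind differed between the tissues as well. Of 13 BMP ligand genes 11 could be tested, and 2 were higher and 2 lower in E16.5 mammary mesenchyme than in E13.5 mammary mesenchyme (median log2 fold change 0.10, beside 0.01 over all genes, of which 19.8% were called). Bmp4, a ligand that Grem1, Nog, Chrd and Chrdl1 can bind, had 1092 ± 177 normalized counts in E13.5 mammary mesenchyme and 159 ± 30.2 in E16.5 mammary mesenchyme (log2 fold change -2.78, standard error 0.201, edgeR adjusted p = 7.3e-11). Bmp4 and Grem1 thus both fell over this interval. Bmp7 was highest in salivary mesenchyme, as Chrd was, with 2107 ± 185. It was lower in E13.5 mammary mesenchyme, with 349.9 ± 49.6 (log2 fold change -2.59, standard error 0.141, edgeR adjusted p = 4.66e-14). Gdf7 was lower in the fat pad precursor, with 3.41 ± 1.44, than in E16.5 mammary mesenchyme, with 258 ± 79.2 (log2 fold change -6.16, standard error 0.411, edgeR adjusted p = 1e-11). Bmp5 was highest in ventral skin mesenchyme, at 834 ± 244, and had 58.3 ± 11.9 in E16.5 mammary mesenchyme. Against salivary mesenchyme, 3 ligand genes were higher and 3 lower in E13.5 mammary mesenchyme, beside 30.1% of all genes called (median log2 fold change 0.65, beside 0.03 over all genes).

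Of 11 receptor and co-receptor genes, none was higher and 5 were lower in E13.5 mammary mesenchyme than in salivary mesenchyme (median log2 fold change -0.48, beside 0.03 over all genes, of which 30.1% were called). The type I receptor gene Bmpr1b had 545 ± 119.6 normalized counts in salivary mesenchyme and 99.1 ± 16.6 in E13.5 mammary mesenchyme. The co-receptor genes Rgmb and Rgma had 2682 ± 463 and 1033 ± 203 in salivary mesenchyme and 1399 ± 112 and 512 ± 67.9 in E13.5 mammary mesenchyme. Hjv, a co-receptor gene of muscle and liver, had 370.0 ± 248 in the fat pad precursor, where muscle transcripts were high, and at most 55.6 ± 38.1 elsewhere.

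Among 17 genes of the BMP Smads and targets, 6 were higher and none lower in E16.5 mammary mesenchyme than in E13.5 mammary mesenchyme (median log2 fold change 0.21), and none was higher and 9 were lower in the fat pad precursor than in E16.5 mammary mesenchyme (median -0.67). The medians over all genes in these comparisons were 0.01 and 0.0025, and 19.8% and 14.1% of all genes were called. Some lists of marker genes also changed in these comparisons, and others did not. From E13.5 mammary mesenchyme to E16.5 mammary mesenchyme, 8 of 10 pericyte and smooth muscle genes, 10 of 10 leukocyte genes, 8 of 10 epithelial genes and 5 of 10 mesenchymal genes were higher and none lower. The leukocyte genes summed to 312 to 357 CPM in the former and 539.5 to 628 in the latter, and the epithelial genes to 6.26 to 17.7 and 16.8 to 125. In that step 10 of 12 muscle genes were higher and 1 lower, and 8 of 10 adipocyte genes were higher and none lower. Of 12 neuron genes none was higher and 5 were lower, and of 8 Schwann cell genes 1 was higher and 5 lower. Of 10 endothelial genes 1 was higher and 1 lower, and of 7 cartilage and bone genes tested 3 were higher and 2 lower. In the fat pad precursor against E16.5 mammary mesenchyme, none of the 10 mesenchymal genes was higher and 7 were lower, with a summed level of 22585 to 27708 CPM beside 41392 to 45659, and 12 of 12 muscle genes were higher. Of 10 adipocyte genes 9 were higher and none lower, and of 10 epithelial genes none was higher and 4 were lower. No leukocyte or neuron gene was called, and 1 pericyte and smooth muscle gene and 1 endothelial gene were higher with none lower. Of 8 Schwann cell genes 2 were higher and 2 lower, and of 7 cartilage and bone genes tested 1 was higher and 3 lower. The part of these shifts in the target gene levels was not tested. Against salivary mesenchyme, 8 of the 17 Smad and target genes were higher and 1 lower in E13.5 mammary mesenchyme (median 0.70, beside 0.03 over all genes, of which 30.1% were called). Id4, of the Id family of transcriptional inhibitors, had 125 ± 30.3 normalized counts in ventral skin mesenchyme, 645 ± 52.9 in E13.5 mammary mesenchyme, 1193 ± 196 in E16.5 mammary mesenchyme, 242 ± 60.2 in the fat pad precursor and 102 ± 21.01 in salivary mesenchyme. The homeobox gene Msx2 had 98.1 ± 19.3 in E16.5 mammary mesenchyme and 3 counts in total in the 5 samples of the fat pad precursor. Smad9 had 206 ± 30.9 in E16.5 mammary mesenchyme and 34.8 ± 6.78 in ventral skin mesenchyme, and Atoh8 had 329 ± 72.8 in ventral skin mesenchyme and 41.3 ± 9.80 in salivary mesenchyme.

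Tolloid proteases cleave chordin, and helper proteins of tolloids were listed with them. Tll1, which encodes tolloid-like 1, was higher in E13.5 mammary mesenchyme, with 321 ± 39.97, than in ventral skin mesenchyme, with 72.5 ± 12.9 (log2 fold change 2.14, standard error 0.174, edgeR adjusted p = 1.52e-09), and than in salivary mesenchyme, with 77.5 ± 20.8 (log2 fold change 2.05, standard error 0.174, edgeR adjusted p = 1.95e-10). Olfml3, an olfactomedin-like gene whose product is known to bind chordin and tolloid enzymes in the frog, had 6877 ± 909 in E16.5 mammary mesenchyme and 1242 ± 84.1 in salivary mesenchyme (log2 fold change 2.47, standard error 0.0919, edgeR adjusted p = 1.98e-17). Pcolce, which encodes an enhancer of procollagen cleavage by tolloids, had 8491 ± 583 and 1589 ± 325 in the same tissues, and Tll2 had at most 51.6 ± 16.8, in the fat pad precursor. Over the 5 genes of this list, 3 were higher and 1 lower in E13.5 mammary mesenchyme than in salivary mesenchyme, the tissue with the most Chrd, beside 30.1% of all genes called (median log2 fold change 0.89, beside 0.03 over all genes). The 3 higher genes were Tll1, Olfml3 and Pcolce, of which Tll1 alone encodes a protease. The lower gene, named after its values were seen, was Bmp1, which encodes a tolloid protease that cleaves chordin (log2 fold change -0.85, standard error 0.0770, edgeR adjusted p = 7.09e-10). Over the 25 samples Bmp1 had 121859 counts, beside 4034 for Tll1 and 512 for Tll2, so it was the most counted of these protease genes.

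Of 17 further genes of secreted BMP antagonists and modulators that could be tested, 7 were higher and 2 lower in E13.5 mammary mesenchyme than in salivary mesenchyme (median log2 fold change 0.79, beside 0.03 over all genes, of which 30.1% were called). In the fat pad precursor against E16.5 mammary mesenchyme 2 were higher and 7 lower (median -0.18, beside 0.0025 over all genes, of which 14.1% were called). Sostdc1, which encodes an antagonist of BMP and Wnt signals, had 969 ± 116 in E13.5 mammary mesenchyme, 609.8 ± 100.3 in ventral skin mesenchyme, 452 ± 77.1 in E16.5 mammary mesenchyme, 151 ± 59.4 in the fat pad precursor and 56.7 ± 22.3 in salivary mesenchyme. It fell from E13.5 mammary mesenchyme to E16.5 mammary mesenchyme (log2 fold change -1.10, standard error 0.218, edgeR adjusted p = 0.000204). Smoc1, a modular calcium-binding protein gene, was highest in the fat pad precursor, as Bmper was, with 1054 ± 232 beside 189 ± 35.8 in E16.5 mammary mesenchyme (log2 fold change 2.48, standard error 0.209, edgeR adjusted p = 1.17e-09). Htra1, a secreted serine protease gene, had 1473 ± 148 in E13.5 mammary mesenchyme and 184 ± 29.8 in salivary mesenchyme.

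**Figure D5:**
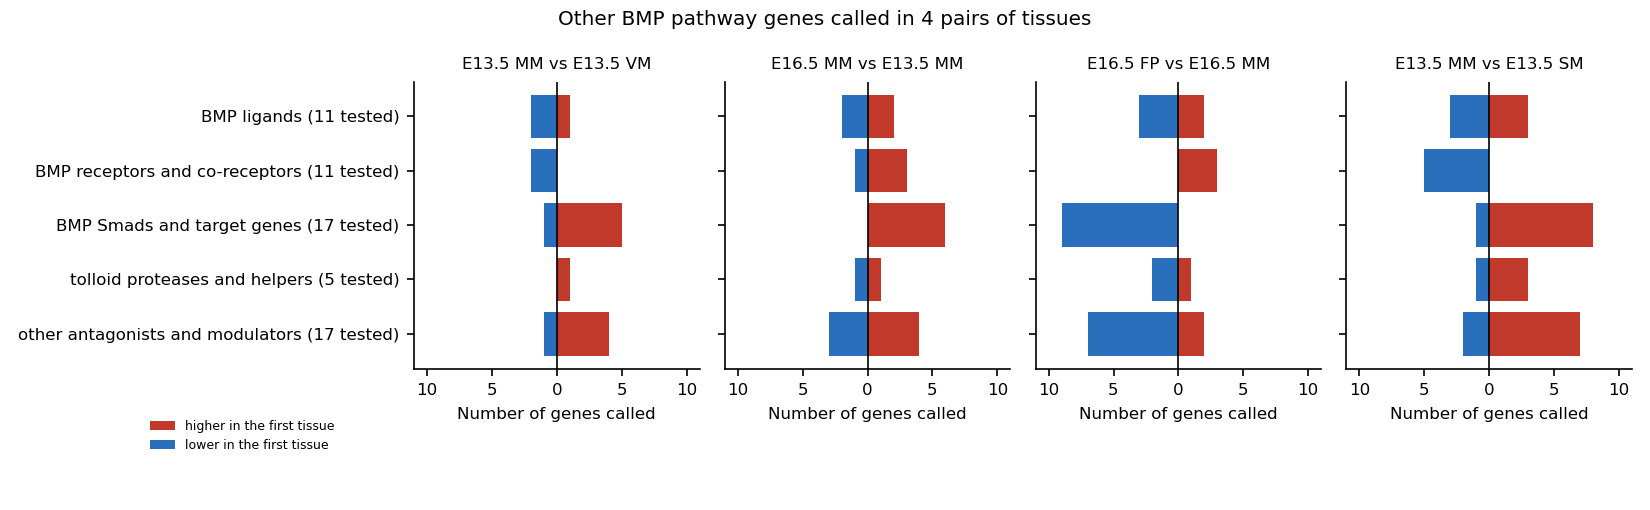
Number of genes of 5 BMP pathway lists called higher (red, to the right) or lower (blue, to the left) in the first named tissue, in 4 of the 10 pairs of tissues. The Smads and target genes have 6 higher and none lower in E16.5 MM against E13.5 MM, and none higher and 9 lower in E16.5 FP against E16.5 MM.

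The genes whose levels followed each antagonist most closely were found by Pearson's correlation of log2 CPM over the 25 samples, among 13648 genes with a mean above 100 in some tissue (13649 for Nog, which is itself below that mean). The samples share their tissues, so the values describe the tissue pattern. For Grem1 they were Itgbl1 (r = 0.98), Hoxd1 (r = 0.97) and Nrcam (r = 0.97). Itgbl1, an integrin-beta-like gene, had 3095 normalized counts on average in ventral skin mesenchyme and 49.1 in E16.5 mammary mesenchyme. For Bmper they were the complement regulator gene Cd55 (r = 0.99), the adhesion receptor gene Adgrd1 (r = 0.98) and the serpin gene Serpinb1a (r = 0.98). Cd55 had 2775 on average in the fat pad precursor and 267 in E13.5 mammary mesenchyme. For Chrdl1 they were Eps8 (r = 0.98), Mxra8 (r = 0.98) and the dystrophin gene Dmd (r = 0.97), which muscle also expresses. For Chrd they were Ube2b (r = 0.93), the retinoic acid receptor gene Rarb (r = 0.93) and Asb3 (r = 0.92). For Nog they were Adcy7 (r = 0.93), Gas6 (r = 0.93) and Syne3 (r = 0.92), and for Twsg1 Crispld1 (r = 0.94), Rabgap1l (r = 0.91) and P3h3 (r = 0.88). Ranked by Spearman's correlation instead, at most 1 of the 3 genes stayed among the 3 most alike for any antagonist, and none did for Grem1.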

How the data were processed

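Libraries were prepared with Ovation SoLo reagents and read on a NextSeq 500. Per the labels and the study's methods, reads were checked with FastQC 0.11.8 and MultiQC 1.9, trimmed with Trimmomatic 0.39 and cleared of ribosomal sequence. The authors then deposited expected counts per gene, estimated with Salmon 0.99.0 on mm10, as whole numbers. The annotation release and the use of strand are not given in the sources used here, and reads shared by similar genes are split by Salmon. Symbols, positions and lengths were taken from GENCODE M21 (GRCm38), which named 35505 of 35880 identifiers, and Hjv was found through a RefSeq synonym.

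The whole table was fitted with edgeR 4.0.16 in R 4.3.3 (TMM factors, 1 mean per tissue, robust quasi-likelihood test, 20 residual degrees of freedom), with Benjamini-Hochberg adjustment over the 17657 genes kept by its expression filter. The thresholds on p, fold change and mean count take the study's values, and applying the mean count to the higher tissue was a choice made here. Standard errors were obtained from the fold change and the F statistic, and intervals are 95%. TPM here means counts per exon length scaled to the same total, without Salmon's effective lengths. The members and lists were chosen with earlier results of these data known. Genes named beyond the 6 are the 4 called genes of each list that changed most in any pair (1 of them is not reported here), and for each antagonist the 3 genes with the highest correlation of log2 CPM (prior count 2). The alternatives were DESeq2 1.42.0, RLE factors, library totals, no expression filter, fits of 2 tissues, a replicate block, each of the 25 samples left out, other count thresholds, the longest transcript as length, and Spearman's correlation. Of promoter sequences, 4 of the 6 genes matched RefSeq's table.

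Replicate numbers in the labels are not said to mark shared litters. Deviations of same-numbered samples from their tissue means did not correlate above 0.1 in every pair of any comparison, so the numbers were not taken as pairs.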

Additional observations from a re-analysis of the deposited data

How the results depend on the processing

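For the 6 genes, log2 fold changes of at least 0.58 in size kept their direction under each alternative run, and the numbers of other BMP pathway genes called stayed within 1.5 times. Of 1080 log2 fold changes recomputed for the 6 genes, 1062 kept their direction and their side of the call, and the calls of Grem1, Bmper and Chrdl1 were kept in all of them except for Grem1 in the fat pad precursor against salivary mesenchyme. There the number of the 6 genes called was 4 in place of 2 with no threshold on the mean count, and 2 to 4 with a sample left out, since Grem1 passed the mean of 50 without fat pad precursor replicate 3 or 5 and Nog without replicate 4 or 5. DESeq2 and the other scalings changed no call of the 6 genes. The threshold decides the calls of Nog, which with no threshold was also called in E13.5 mammary mesenchyme and ventral skin mesenchyme against salivary mesenchyme, and which with a mean of 50 over both tissues was called in no pair. Without fat pad precursor replicate 2, Chrd was called between the fat pad precursor and E13.5 mammary mesenchyme (log2 fold change -0.66).

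A few differences that were not called changed sign when a sample was left out. Grem1 in E13.5 mammary mesenchyme against ventral skin mesenchyme ran from -0.14 to 0.0434 beside -0.05 with all samples, and Twsg1 in the same pair from -0.0665 to 0.0103 beside -0.03. Nog in the fat pad precursor against E13.5 mammary mesenchyme ran from -0.16 to 0.19 and Chrd in the fat pad precursor against ventral skin mesenchyme from -0.14 to 0.22, both negative only without fat pad precursor replicate 2. With the replicate number as a block, no call of the 6 genes changed, and the genes called over the whole table in E16.5 mammary mesenchyme against E13.5 mammary mesenchyme came to 3503 in place of 3495. Correlations of same-numbered samples in that pair ran from -0.44 to 0.0899. Per length, 11 of 30 shares moved by more than 1 SD with the longest transcript as length. Depth limits Nog most, with 3 to 19 counts per sample in salivary mesenchyme.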

Other observations

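Among the 6 antagonists, Grem1 and Chrdl1 had opposite levels across the samples, with Pearson's r of -0.97 and Spearman's rho of -0.84 on log2 CPM over the 25 samples. These samples form 5 tissues, so the value describes the order of the tissues and no p-value is given. Chrdl1 and Bmper, both higher at E16.5, had r = 0.50 over the same samples, with Chrdl1 high and Bmper low in salivary mesenchyme. In E16.5 mammary mesenchyme, replicate 5 had the lowest value of the tissue for Grem1 (153 normalized counts), Chrdl1 (509.9) and Bmper (917) and the highest for Twsg1 (5224). The same sample had the lowest summed level of adipocyte genes in E16.5 mammary mesenchyme, at 225 CPM, and of muscle genes, at 822 CPM. None of the 30 sets of 5 samples held a value far enough from the other 4 to pass Dixon's test.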
